A study of Micropterus salmoides with 45 samples.

Results

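A set of 30 genes of largemouth bass liver was higher under severe hypoxia than in control fish from 8 h on, and differed less from control after 24 h of moderate hypoxia, as the rule that chose them asked. They are 30 of the 2660 assembled genes in the tables, and were chosen by their measured severe and moderate differences from control. Liver of Micropterus salmoides aged 6 months was sequenced in 45 libraries, 3 for each of 3 oxygen levels at 0, 4, 8, 12 and 24 h. Control fish (CG) were kept at 7 mg/L dissolved oxygen, the moderate hypoxia group (MHG) at 3.0 ± 0.2 mg/L and the severe hypoxia group (SHG) at 1.2 ± 0.2 mg/L. All groups were held at 20 °C and went unfed during the trial, controls included. Each oxygen level had 3 of the 9 tanks, with 30 fish per tank, and 0 h was the moment at which nitrogen had brought the oxygen down to its level. The labels do not tie a library to a tank or to a single fish, so the spread between libraries may be partly technical. Oxygen level and tank cannot be told apart.

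The rule worked on log2(RPKM + 1), where RPKM is the reads of a gene scaled by its length and by the reads of the library, and on the means of the 3 libraries of a group. A gene was taken when its mean over the 15 control libraries was 2 to under 100 RPKM. Its severe-minus-control difference had to stay under 0.7 at 4 h and reach at least 0.8 at 8, 12 and 24 h each. Its moderate-minus-control difference at 24 h had to stay under 0.6. Of the 2147 genes at such a control level, 1843 met the limit at 4 h, 155 of these the limit at 8 h, 128 also that at 12 h and 101 also that at 24 h. The moderate condition then left 30 genes and set aside 71. These differences are therefore described below without a test. The chosen genes all passed the filter on low values, 1 RPKM in at least 3 libraries, as did 2656 of the listed genes.

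When oxygen falls, fish cells, like those of other vertebrates, stabilise hypoxia-inducible factor, a transcription factor that turns on genes of glycolysis, glucose uptake and oxygen transport. The liver stores glycogen, releases glucose and handles lipid, and the study asked how acute hypoxia alters its use of glucose and lipid. Early targets of such a factor can be followed by later genes that answer to a lack of energy, to damaged protein or to hormones. The genes here carry identifiers of a de novo assembly and no names: none of the identifiers was found among 37622 genes of the RefSeq gene table of the species. Their functions, and the liver markers that would check the tissue, could not be looked up, so roles are given for none of them and sequences are not shown. In whole liver, more RNA per cell and more cells of a type cannot be told apart.

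Depth was even, at 29986862 to 33433838 reads per library as recovered from the values. Between 10.9% and 15% of a library's reads fell on listed genes. This share was 10.9% to 12.7% in the control libraries and 13.2% to 15% in severe hypoxia at 12 and 24 h. Its bearing on the differences was not tested. The member genes had median numbers of 69 to 11734 reads per library, with a median of 574.5 over the members, and the lowest number in any library was 19 reads, for c91270_g1. The second control library at 8 h has values for 2527 genes. It lacks c91621_g3 and c92157_g3, whose control mean at 8 h is that of 2 libraries. Among the controls, 2 libraries stood apart in many member genes. Control 4 h replicate 3 was the highest of the 15 controls in 15 members, and control 24 h replicate 1, with a member mean of -0.43, was the lowest in 13. The severe limits of the rule favour genes high in control at 4 h and low in control at 24 h. These counts were not taken over all genes tested, so they describe the chosen genes. Both libraries also had the lowest medians of the controls over all 2660 listed genes, -0.14 and -0.22 relative to the control mean.

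**Figure D1:**
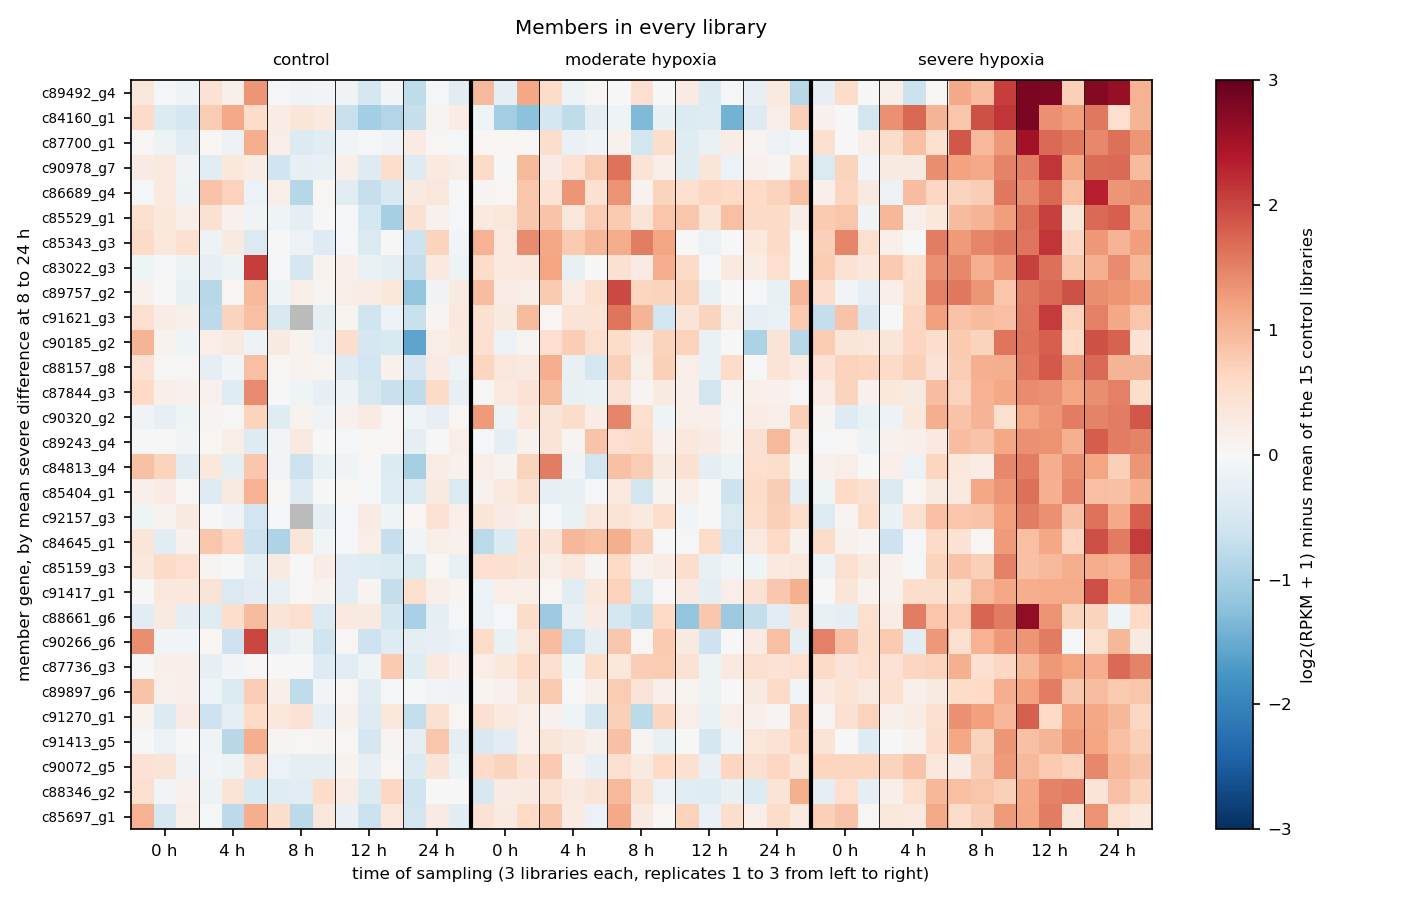
Level of each member gene (rows) in each of the 45 libraries (columns), as log2(RPKM + 1) minus the gene's mean over the 15 control libraries; colours stop at 3 on either side and grey marks the 2 missing values. Severe libraries at 8, 12 and 24 h are high in nearly every row, and control 4 h replicate 3 is high in 13 rows.

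At 8 h the median severe-minus-control difference of the members was 1.03 on the log2(RPKM + 1) scale, at 12 h it was 1.49 and at 24 h 1.29. Over all 2656 genes tested, the same medians were -0.01, 0.08 and 0.22. At 4 h it was 0.35 for the members and 0.08 for all genes. The difference was largest at 12 h in 17 members, at 24 h in 10 and at 8 h in 3, namely c85343_g3, c90266_g6 and c90978_g7. The 3 severe libraries lay above the 3 control libraries in 29 members at 8 h, in 29 at 12 h and in 27 at 24 h. Among all genes tested, such a separation was met by 28% at 8 h, 38.7% after 12 h and 41.8% after 24 h. At 12 h, 926 of these 2656 genes lay below control without overlap. The genes tested are listed genes, on which only a part of each library's reads fell. Shares and medians over all genes tested, here and below, describe this list and not all genes of the liver. The rule used the severe-minus-control contrasts, so the member counts describe the choice. The separation held at all 3 times in 25 members. A stricter count, with all 9 severe libraries of 8 to 24 h above all 15 control libraries, was met by 6 members. Neither of these combined counts was taken over all genes tested, so both only describe the chosen genes.

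**Figure D2:**
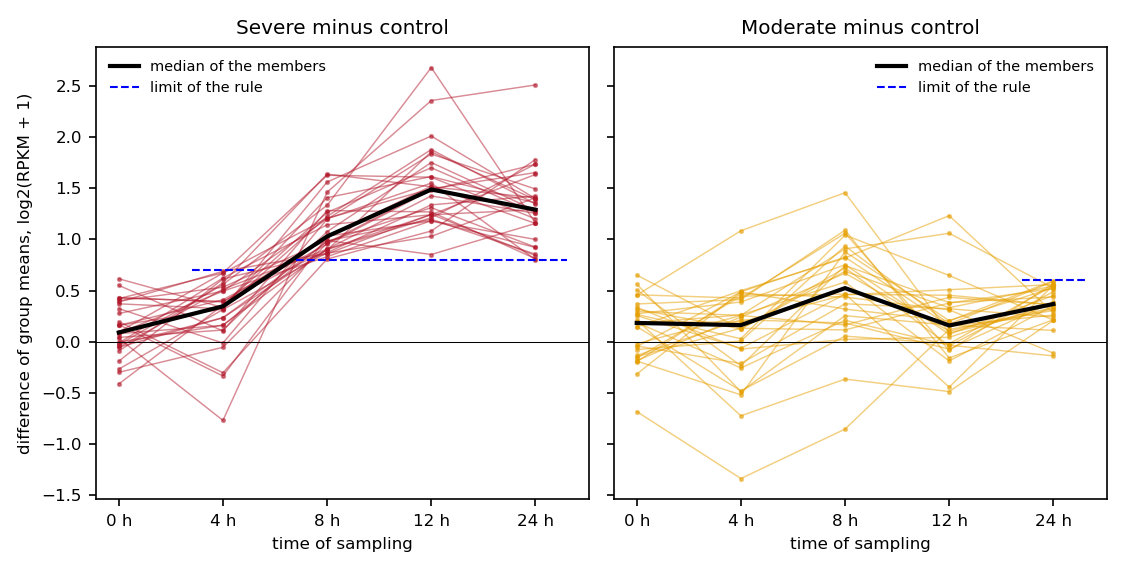
Difference of group means from control at the same time (vertical axis, log2(RPKM + 1)) for each member (thin lines) and their median (black), by time of sampling; dashed lines mark the limits of the rule. In severe hypoxia the median goes from 0.35 at 4 h to 1.49 at 12 h, and in moderate hypoxia it is highest at 8 h, at 0.52. The rule capped the moderate difference at 24 h and at no other time.

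Averaged over the members, each severe library from 8 h on stood above each control library of the study. The rule chose the genes by these severe libraries, so the separation describes the choice. This average is the mean of log2(RPKM + 1) minus the gene's mean over the control libraries. It was 0.27 ± 0.13 (SD, n = 3) in severe hypoxia at 0 h, 0.48 ± 0.26 after 4 h, 1.03 ± 0.21 after 8 h, 1.35 ± 0.31 after 12 h and 1.23 ± 0.18 after 24 h. The highest control library was control 4 h replicate 3 at 0.52, and the lowest severe library from 8 h on was severe 8 h replicate 1 at 0.87. At 12 h, severe replicate 3 stood at 0.997 against 1.55 and 1.50 in replicates 1 and 2, and it was the lowest of the 3 in 20 members. Severe 4 h replicate 3, at 0.77, was the highest of its group in 20 members and lay closest to the 8 h libraries.

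**Figure D3:**
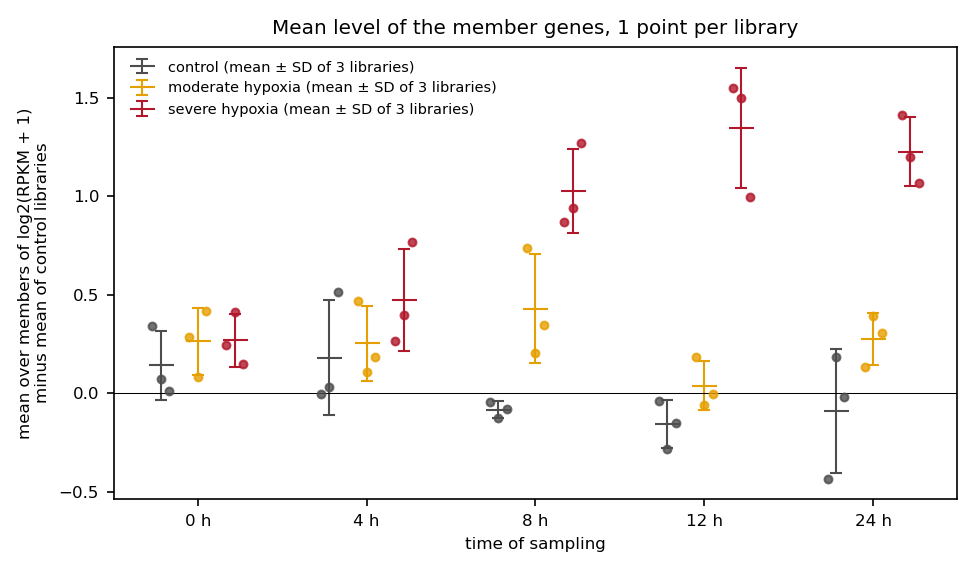
Mean over the member genes of log2(RPKM + 1) minus the mean of the control libraries (vertical axis), by time of sampling; points are libraries, bars are the group mean ± SD (n = 3). The severe libraries of 8 to 24 h sit between 0.87 and 1.55, while the moderate libraries reach 0.74 at 8 h.

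The control level of the median member was itself lower at 8 to 24 h than at 0 h. Against control 0 h it stood at -0.03 (4 h, with 14 members above 0), -0.24 (8 h), -0.29 (12 h) and -0.30 (24 h), beside -0.08, 0.03, 0 and -0.03 over all genes tested. The rule favours high controls at 4 h and low ones at 8 and 12 h. At 24 h its severe limit favours low controls and its moderate limit high ones, so no test was made. Against the severe group's own start, the median member was higher by 0.74 after 8 h, by 0.999 after 12 h and by 0.95 after 24 h. The member c90266_g6 stood at 13.6, 8.35 and 6.33 RPKM in the severe libraries at 0 h and at 6.12, 9.25 and 5.13 at 24 h. Its severe-minus-control difference of 0.81 at 24 h thus came with a severe level below that at 0 h. At 8 and 12 h its severe level was no higher than at 0 h either, with a change of -0.02 at each. Its control level changed by -0.75, -0.74 and -0.65 from 0 h to 8, 12 and 24 h.

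The member with the largest mean difference was c89492_g4, a gene of 5154 bp. It stood at 1.79, 1.69 and 1.74 RPKM in the control libraries at 8 h, 1.70, 1.02 and 1.72 after 12 h and 0.719, 1.78 and 1.34 after 24 h. Its severe libraries held 5.39, 4.48 and 11.2 RPKM at 8 h, 19.6, 19.4 and 3.75 after 12 h and 18.5, 16.7 and 4.96 after 24 h. The severe libraries lay above the controls at each of these times, with replicate 3 far below the other pair at 12 and 24 h. At 24 h the difference was 2.51 on the log2(RPKM + 1) scale, and the mean RPKM was 10.5-fold that of control. At 4 h the difference was -0.77, and -0.43 without control 4 h replicate 3, with 2.28, 0.855 and 2.03 RPKM in severe hypoxia against 2.93, 2.20 and 6.22 in control. Moderate hypoxia at 24 h held 1.43, 2.57 and 0.628 RPKM, which overlapped with control.

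Next came c84160_g1, of 2185 bp, with a mean difference of 1.72 over 8, 12 and 24 h. Its severe libraries held 13.3, 29.1 and 34.7 RPKM at 8 h and 55.9, 19.9 and 18.2 at 12 h, against 8.38, 9.32 and 8.90 and 4.05, 2.98 and 3.36 in control. By 24 h severe hypoxia stood at 22.9, 10.3 and 15.2 RPKM and control at 3.95, 7.52 and 8.34. The groups did not overlap at these times. Against its own start at 7.74, 7.06 and 4.47 RPKM, the severe group was already higher at 4 h, at 19.7, 25.7 and 15.4. Control was also high at 4 h, at 12.5, 16.7 and 10.8 RPKM, so that the difference from control at 4 h was 0.56. Moderate hypoxia stood at 4.63, 3.78 and 5.54 RPKM at 4 h and at 6.38, 2.19 and 5.91 at 8 h, below each control library of those times.

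The gene c87700_g1 had the third largest mean difference, 1.66, and the lowest moderate-minus-control difference at 24 h of all members, -0.14. Its control libraries spanned 1.56 to 6.30 RPKM with a median of 2.26, the highest being control 4 h replicate 3. In severe hypoxia it stood at 11.5, 5.70 and 7.45 RPKM at 8 h, 18.5, 10.1 and 9.18 after 12 h and 8.22, 9.81 and 7.55 after 24 h. In moderate hypoxia it stood at 1.67, 1.97 and 2.97 RPKM at 12 h and 2.61, 2.0 and 2.22 at 24 h. The severe and moderate libraries were well apart at both times, and the moderate ones lay within the range of the controls.

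Below these, c90978_g7, c86689_g4, c85529_g1, c85343_g3, c83022_g3, c89757_g2 and c91621_g3 had mean differences of 1.41 to 1.52. For c90978_g7 severe hypoxia held 6.27, 5.90 and 7.86 RPKM at 8 h against 1.08, 1.63 and 1.70 in control, its largest difference at 1.64. For c86689_g4 the 3 severe libraries at 24 h, 24.0, 11.4 and 12.0 RPKM, lay above control at 4.93, 5.27 and 3.88. They were among the most uneven of the members, with an SD of 0.56 on the log2 scale.

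**Figure D4:**
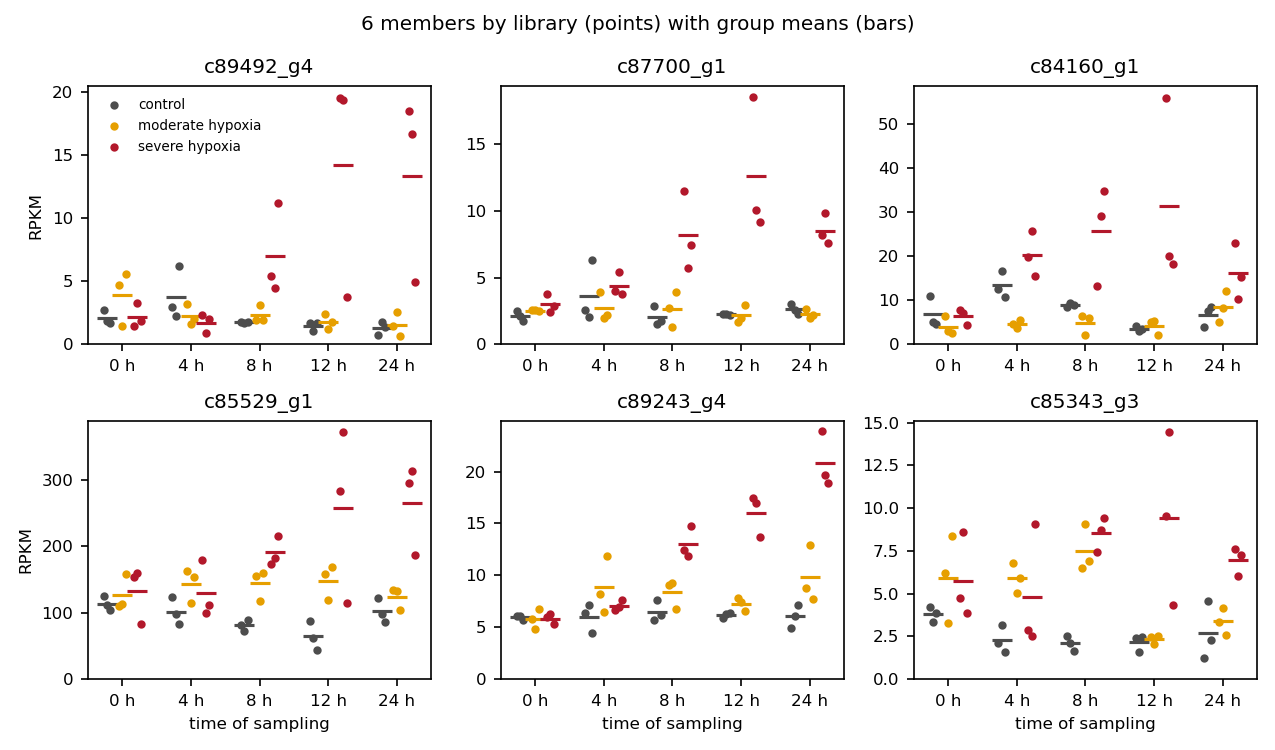
RPKM (vertical axes, each from 0) of 6 members in every library (points) with group means (bars), by time of sampling and oxygen level. Severe libraries separate from control from 8 h on; c85343_g3 is also high in moderate hypoxia at 8 h, at 6.51 to 9.07 RPKM.

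The most abundant member was c85529_g1, with a mean of 92.5 RPKM over the control libraries. In severe hypoxia it stood at 174, 182 and 216 RPKM at 8 h, 283, 373 and 115 after 12 h and 295, 313 and 187 after 24 h. Control held 81.2, 72.2 and 89.5 RPKM at 8 h, 87.1, 61.3 and 44.1 after 12 h and 122, 98.2 and 85.7 after 24 h, with no overlap at any of these times. This gene also had the highest moderate-minus-control difference at 12 h among the members, 1.23, from 158, 118 and 168 RPKM. At 24 h moderate hypoxia was at 134, 133 and 104 RPKM and overlapped with control.

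The second most abundant, c85697_g1, averaged 53.9 RPKM in control and had the smallest mean difference of the members, 0.98. Its severe libraries at 24 h held 126, 69.6 and 61.4 RPKM against 33.6, 58.8 and 38.9 in control. The lowest severe library lay just above the highest control. The next in abundance were c84645_g1 at 15.4 RPKM, c90185_g2 at 10.9 and c91417_g1 at 10.7 in control. For c84645_g1 the severe level at 24 h, 58.1, 44.6 and 65.5 RPKM, stood 1.78 above control on the log2 scale. At 8 h its severe libraries held 19.9, 15.4 and 36.7 RPKM against 7.15, 19.1 and 13.7, so that the groups overlapped.

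Some members were even within at least some groups of libraries. The gene c89243_g4, the longest member at 8524 bp, ran from 4.41 to 7.58 RPKM in the 15 control libraries. In severe hypoxia it stood at 6.69, 6.92 and 7.65 RPKM at 4 h, 12.4, 11.8 and 14.7 after 8 h, 17.5, 16.9 and 13.7 after 12 h and 23.9, 19.7 and 18.9 after 24 h. It is 1 of the 6 members in which all severe libraries from 8 h on lay above all controls. The severe libraries at 24 h differed least in c89757_g2 (16.8, 15.7 and 14.8 RPKM), c89897_g6 (5.71, 5.01 and 5.21) and c85404_g1 (6.86, 6.81 and 7.85), with SDs of 0.08 to 0.10 on the log2 scale. They differed most in c89492_g4, with an SD of 0.95, and in c90185_g2, with 0.81, where the libraries held 41.2, 36.8 and 14.1 RPKM. The genes even at severe 24 h were less so in the 15 control libraries. There c89757_g2 ran from 1.95 to 12.2 RPKM, c89897_g6 from 1.07 to 5.31 and c85404_g1 from 2.11 to 7.67.

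The lowest members in control were c89492_g4 at 2.07 RPKM, c91270_g1 at 2.15 and c88346_g2 at 2.21, and 16 of the 30 had a control mean under 5 RPKM. For c91270_g1, of 828 bp, severe hypoxia held 6.88, 6.08 and 5.02 RPKM at 8 h and control 2.76, 3.10 and 1.55. For c88346_g2 the severe libraries at 12 h held 5.83, 7.66 and 7.96 RPKM, those of control 2.62, 1.32 and 3.74 and those of moderate hypoxia 1.48, 1.42 and 1.64. Moderate hypoxia was thus at the lower end of control for this gene at 12 h.

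In moderate hypoxia, too, the median member stood above control. At 8 h the median moderate-minus-control difference of the members was 0.52, against 0.01 over all genes tested. It reached at least 0.8, the size asked of severe hypoxia, in 9 members, and such a difference was met by 6.29% of all genes tested. The 3 moderate libraries lay above the 3 controls in 15 members (11.3% of all genes tested). At 12 h the median was 0.16, with 2 members at 0.8 or more (3.73% of all genes) and 5 without overlap (8.58%). Without control 12 h replicate 2 or moderate 12 h replicate 1, the 12 h median was 0.05. At 24 h the median was 0.37, against 0.01 over all genes tested. Above control lay 28 of 30 members, up to the 0.60 at which the rule stopped, beside 1339 of all 2656 genes. The moderate libraries lay above the controls without overlap in 5 members (24.9% of all genes). The 24 h median was 0.20 without control 24 h replicate 1 and 0.54 without control 24 h replicate 2. Against the moderate group's own start, the median member stood at -0.05 at 24 h, with 13 members above 0. Over all 2656 genes the median was -0.11, with 1137 above 0. In 23 members the moderate-minus-control difference was larger at 8 h than at 12 h, and in 20 larger than at 24 h. The rule capped the 24 h difference, so the second count partly describes the choice. In the 71 genes set aside by that cap, the medians were 0.59 at 8 h, 0.44 at 12 h and 1.19 at 24 h. Neither count was taken over all genes tested. The moderate comparisons share their control libraries with the severe ones, and the rule favours low controls at 8 and 12 h, so no test was made. Without moderate 8 h replicate 1, the median at 8 h was 0.39 and 4 members reached 0.8. The rule thus limited the moderate difference at 24 h and at no other time.

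The clearest case was c85343_g3. In moderate hypoxia it stood at 6.77, 5.02 and 5.94 RPKM at 4 h and 6.51, 9.07 and 6.92 at 8 h, against 2.13, 3.19 and 1.60 and 2.51, 2.11 and 1.67 in control. At 12 h moderate hypoxia was back within the controls, at 2.44, 2.07 and 2.49 RPKM against 2.40, 1.60 and 2.49. Severe hypoxia held 7.43, 8.72 and 9.42 RPKM at 8 h, where it overlapped with moderate hypoxia, and 9.55, 14.5 and 4.33 at 12 h, where it did not. At 0 h the gene stood at 6.20, 3.26 and 8.37 RPKM in moderate and 4.73, 8.60 and 3.87 in severe hypoxia. Control held 4.24, 3.37 and 3.87 RPKM at 0 h and overlapped with both. Against the moderate group's own start the difference was 0.06 at 4 h and 0.35 at 8 h. Control changed by -0.57 and -0.65 from its own start at these times.

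Set directly against moderate hypoxia, the severe level of the median member was higher by 0.47 at 8 h, 1.24 after 12 h and 0.95 after 24 h. The 3 severe libraries lay above the 3 moderate ones in 11 members at 8 h, 25 after 12 h and 24 after 24 h. Over all genes tested this separation was met by 14.1%, 30.2% and 30.7%. The severe libraries of these times were used to choose the genes, so these values carry no test either. In order of the 12 h difference from control in moderate hypoxia, c85529_g1 (1.23), c86689_g4 (1.06) and c91621_g3 (0.65) came first. At the other end were c88661_g6 (-0.49), c88346_g2 (-0.44) and c92157_g3 (-0.19). For c86689_g4, moderate hypoxia at 12 h held 5.90, 6.64 and 6.54 RPKM, above control at 2.95, 2.07 and 2.62 and below severe hypoxia at 12.1, 15.4 and 8.20.

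The moderate libraries at 0 to 12 h took no part in the choice, so the moderate course can be tested against its own start. The test was limma on log2(RPKM + 1) over all 2656 genes, with Benjamini-Hochberg adjustment and calls at an adjusted p under 0.05. None of the 30 members was called at 4, 8 or 12 h against 0 h, nor in the F-test for any difference among the 4 times. Of all genes, 0.0377% were called at 4 h, 0% after 8 h, 0.301% after 12 h and 0.151% in the F-test. At an unadjusted p under 0.05 there were 2, 2, 1 and 2 of the 30 members, beside 4.97%, 8.02%, 11.9% and 8.28% of all genes. The count was also 0 under each alternative model, among them limma without the trend and with the replicate number as a block. The changes at 4 h ran from -0.49 to 1.02 with a median of -0.06. At 8 h they ran from -0.46 to 0.87 with a median of 0.20, and 23 of 30 were above 0, beside 1315 of all 2656 genes. At 12 h they ran from -0.99 to 0.29 with a median of -0.25, and 6 were above 0, beside 1015 of all 2656 genes. The medians over all genes were -0.05, 0 and -0.11.

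The precision of single genes was limited. The standard errors of the members had a median of 0.34, which gives an approximate 95% interval (± 1.96 SE) of 0.67 on either side. The multiplier is that of a normal distribution, and the t distribution used by limma would give slightly wider intervals. At 12 h the interval ended below 0.8 in 25 members, so that a change of that size lay outside it. At 8 h this held for 14 members, and in the others the interval reached 0.8 or more. The rule set 0.8 on severe minus control at the same time, not on a change from the start. Against its own start, severe hypoxia reached 0.8 in 13 members at 8 h and 22 at 12 h. Over all 2656 genes tested, 411 and 654 did so. The highest changes at 4 and 8 h were those of c84645_g1, at 1.02 (SE 0.38, limma adjusted p = 0.667) at 4 h and 0.87 (SE 0.38, adjusted p = 0.566) at 8 h. It stood at 7.83, 10.8 and 20.1 RPKM at 0 h, 19.2, 30.1 and 28.1 after 4 h and 32.3, 24.7 and 14.6 after 8 h of moderate hypoxia. In c89243_g4 the changes were 0.51 (SE 0.21, limma adjusted p = 0.714) and 0.46 (SE 0.21, adjusted p = 0.566), and the first was 0.30 without moderate 4 h replicate 3. The lowest limma adjusted p among the single times was that of c85343_g3 at 12 h, with a change of -0.99 (SE 0.35, adjusted p = 0.204). These 3 genes are named for their test values, which were seen first, and none of the changes passed.

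**Figure D5:**
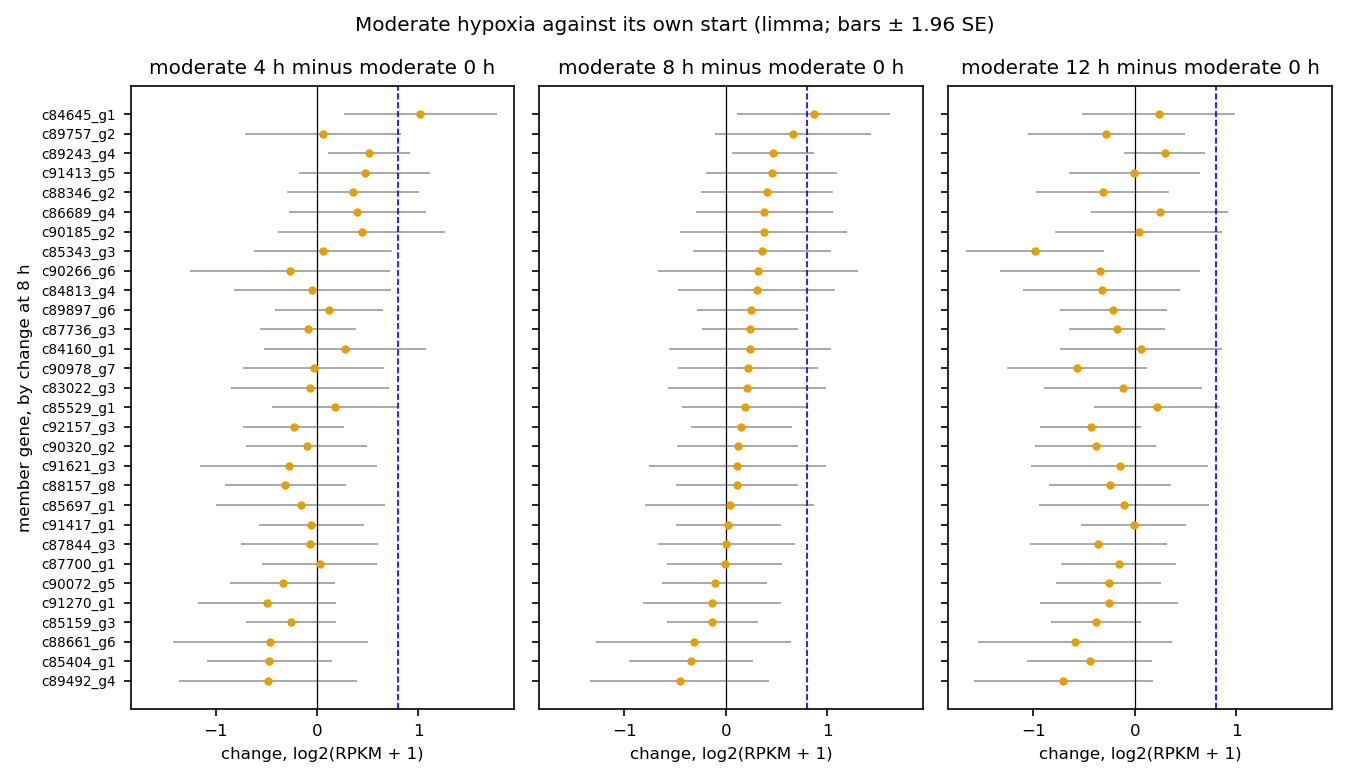
Change of each member (rows) in moderate hypoxia at 4, 8 and 12 h against moderate hypoxia at 0 h (horizontal axis, log2(RPKM + 1), limma), with bars of ± 1.96 SE; the dashed line marks 0.8. At 8 h 23 points lie above 0 and at 12 h 6 do, and no member was called. Of all 2656 genes tested, 1315 lie above 0 at 8 h and 1015 at 12 h.

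Severe 0 h against control 0 h, a contrast the rule did not use, had a median of 0.09 over the members and ran from -0.41 to 0.62. This median was 0.19, 0.016 and 0.047 without control 0 h replicates 1, 2 and 3, and 0.21 without severe 0 h replicate 3. Moderate 0 h against control 0 h had a median of 0.18 and ran from -0.68 to 0.65. Its median was 0.11 when control 0 h replicate 3 was left out, and 0.056 when moderate 0 h replicate 3 was. In neither was a member called by limma, and of all genes 0% were called in either. At an unadjusted p under 0.05 there were 0 members in the first (6.06% of all genes) and 1 in the second (3.39%), c90320_g2, at 0.65 (SE 0.31, limma adjusted p = 1). It stood at 22.2, 7.63 and 10.9 RPKM in moderate hypoxia and 7.89, 7.01 and 7.70 in control at 0 h, and without moderate 0 h replicate 1 its difference was 0.25.

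Whether the members stay under the 4 h limit depends in part on control 4 h replicate 3. In this library 13 members stood at least 0.8 above their control mean. For c83022_g3 it held 11.2 RPKM, while the other 14 control libraries had 0.767 to 2.53. For c90266_g6 it held 19.6 RPKM against 4.30 and 2.33 in the other control libraries at 4 h. Without it, the median severe-minus-control difference of the members at 4 h was 0.54 in place of 0.35. Then 10 members reached 0.7 at 4 h and so would fall outside the rule. The member c89492_g4, at 6.22 RPKM in this library, would also fall outside, since its control mean would lie under 2 RPKM. In all, 19 members still met the rule without this library. The median difference at 4 h was 0.19 without control 4 h replicate 1 and 0.21 without severe 4 h replicate 3. The largest differences at 4 h without control 4 h replicate 3 were 1.12 in c89757_g2, 1.09 in c83022_g3 and 0.996 in c85697_g1.

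The 13 members that were high in this control library were also often high in moderate 4 h replicate 1, a library outside the rule. That library was the highest of the 3 moderate 4 h libraries in 10 of these 13 members and in 6 of the other 17. The median level there, relative to control, was 0.79 in the first and 0.40 in the others. Severe 4 h replicate 3 was the highest of its group in 9 of the 13 and in 11 of the other 17. For c84813_g4 the moderate 4 h libraries held 10.8, 2.80 and 1.72 RPKM, and for c88157_g8 15.6, 5.66 and 4.38. This division was made after the values were seen and carries no test. Later in severe hypoxia the median differences of both sets were 1.20 and 0.98 (8 h), 1.55 and 1.31 (12 h), then 1.28 and 1.35 (24 h).

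The 30 members came from 30 components of the assembly, groups of contigs that can be parts or copies of a gene, out of 2245 components in all. In 5 components other genes were listed, 7 in number, and none of them met the rule. Their severe-minus-control differences ran from 0.95 to 2.78 at 12 h and from 0.86 to 1.75 at 24 h. Reads can be divided between genes of a component, so these are not independent. For c84160_g1 and c84160_g10 the differences at 12 h were 2.68 and 2.78, and at 24 h 1.16 and 1.50. The second missed the rule through moderate hypoxia at 24 h, where it stood 1.02 above control and c84160_g1 0.31. Similarly c90266_g5 stood at 0.91 and c90266_g6 at 0.53. The genes c91621_g1 and c91621_g2 missed the limit at severe 8 h, with 0.76 and 0.74. The gene c90185_g5 missed it at severe 4 h, with 0.87, and shared with c90185_g2 a moderate level below control at 24 h, -0.26 and -0.11. The genes c89243_g11 and c89243_g14 already stood at 1.14 and 0.92 at severe 4 h, where c89243_g4 had 0.24. At severe 8 h they missed the limit, with 0.68 and 0.67 against 0.90 in c89243_g4. The second also missed the moderate limit at 24 h, with 0.67.

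The member genes were long. Their median length was 3997 bp, against 3249 bp in the 71 genes that met all conditions but the moderate one and 2591.5 bp over all genes tested. The shortest was 828 bp, and 23 of 30 were longer than the median of all genes. Their control means had a median of 4.34 RPKM, against 4.74 in the 71 genes and 5.24 over all tested. No test of these differences was made. Within the 12 moderate libraries at 0 to 12 h, deviations from the group means had a median pairwise correlation of 0.22 over 435 pairs of members. It was 0.42 among the 71 genes and 0.04 over all pairs of tested genes. The pairs share these libraries and their depth.

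The 71 genes differed from the members by the rule at 24 h of moderate hypoxia, where their median was 1.19 against 0.37. Their severe medians were 1.10 at 8 h, 1.69 after 12 h and 1.51 after 24 h. In contrasts outside the rule, moderate 8 h against moderate 0 h had a median of 0.28 in the 71 genes and 0.20 in the members. Moderate 12 h against moderate 0 h had -0.02 and -0.25. The difference between the lists was not tested.

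Several members sat close to a limit. At the moderate 24 h limit of 0.6, c89243_g4 was just inside at 0.596 and c85395_g4 just outside at 0.64. At the severe 24 h limit of 0.8, c88661_g6 was inside at 0.80 and c90455_g5 outside at 0.799. At 8 h the nearest were c84645_g1 at 0.81 and c86015_g5 at 0.79, and at 4 h, c87736_g3 at 0.69 and c88078_g1 at 0.72. At 12 h the nearest inside was c90072_g5 at 0.85. Only c82562_g1 met every condition but that of 12 h, with a difference of -0.87. It stood at 7.44, 2.68 and 11.1 RPKM at 8 h, 0.869, 2.23 and 0.705 after 12 h and 3.64, 5.23 and 4.96 after 24 h of severe hypoxia. At the lower limit of the control level, c89492_g4 was inside at 2.07 RPKM and c86249_g5 outside at 1.68, and c85529_g1 was the highest inside. Without control 4 h replicate 3, the control mean of c89492_g4 would lie under the limit of 2 RPKM.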

How the data were processed

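Liver RNA was sequenced as 125-bp paired-end reads from TruSeq libraries and, per the labels' protocols, the reads were assembled de novo by Trinity. The deposited values are RPKM per gene, a unit read from the values since the file headers name none; aligner and counter: not given in the sources used here. Gene lengths and library totals that turn all 117443 values above 0 into whole reads (within 0.001) were recovered from the values. Tests used limma 3.58.1 (R 4.3.3) with an intensity trend on log2(RPKM + 1), 15 group means, genes that reached 1 RPKM in 3 or more libraries, and Benjamini-Hochberg adjustment over 2656 genes. This scale understates changes of low genes. On simulated data for moderate 12 h against 0 h (2656 genes), 42 of 100 genes with a log2 change of 1 and 94 of 100 with a change of 2 were recovered, and 7 unchanged genes were called. Contrasts used to choose the genes carry no test. The members and lists were chosen with earlier results of these data known. Named genes are those with the 10 largest mean severe differences, the extremes of control level, of moderate 12 h difference and of spread, and genes at a limit; others were chosen after their values were seen. Alternatives were another pseudocount, no filter, no trend, quantile normalization, the compared groups alone, the replicate number as a block, stricter limits and leaving out each library. P-values measure the spread between these libraries.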

Additional observations from a re-analysis of the deposited data

Results flagged for a closer look

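In 3 of 150 pairs of member and time, each severe library lay on one side of the control mean and each moderate library on the other. This count was not taken over all genes tested, so it only describes the chosen genes. The gene c84160_g1 was such a case at 4 h, where severe hypoxia stood 0.56 above and moderate hypoxia at -1.34 from control, a gap of 1.894 on the log2(RPKM + 1) scale. It was so again at 8 h, with 1.33 and -0.85, a gap of 2.185. The gene c88346_g2 was so at 12 h, with 1.24 and -0.44, a gap of 1.687. The differences between these effects were not tested, and the severe values had been used to choose the genes.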

How the results depend on the processing

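With a pseudocount of 0.1, 17 of the 30 members still met the rule, after quantile normalization 18, and with all limits on differences stricter by 0.1, 12, which were then all the genes meeting it. Leaving out each of 30 libraries in turn kept 19 to 30 members among 23 to 37 genes. The lowest number, 19, came without control 4 h replicate 3 and without control 24 h replicate 2. The members c85529_g1, c86689_g4, c87844_g3 and c91621_g3 met the rule each time. The median severe difference at 8 h was 1.26 with a pseudocount of 0.1, against 1.03. The log2(RPKM + 1) scale understates changes of low genes, and how far this accounts for the move was not tested. The median moderate difference at 4 h, 0.16, was -0.002 without control 4 h replicate 2; no other median and no named change turned its direction under the alternatives run. Leaving out 1 library moved the severe medians at 8 to 24 h by under 1.5 times, and those of severe hypoxia at 0 and 4 h and of moderate hypoxia at 0, 4, 12 and 24 h by more. The moderate 4 h median was 0.080 and 0.30 without control 4 h replicates 1 and 3, and 0.27 without moderate 4 h replicate 3. The count of members called was 0 in each of the 6 tests under each alternative, with a lowest adjusted p by limma of 0.0692, for moderate 12 h against 0 h.

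Same-numbered libraries had correlations of -0.18 to 0.20 between their deviations from the group means, in the single contrasts tested by limma. Low correlations cannot exclude that same-numbered libraries share a tank or batch, which the labels do not say. With the replicate number as a block, 0 members were called in each test.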
